A study of Drosophila melanogaster with 24 samples.

Results

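The antenna was compared with the proboscis of adult fruit flies (Drosophila melanogaster) in both sexes. The members are the 16 samples whose titles name one of these body parts, 8 of antenna and 8 of proboscis, out of 24 in the series. The other 8 samples, from the first legs, entered the model and are described only where they place a difference. Antennae (the funiculus, labelled a3, with its arista) and proboscises had been dissected from males and females 1 to 2 hours after the fly left its pupal case, and the mRNA had been amplified by T7 transcription. Each sex had 4 samples per body part. The series text gives a single isogenic line, WI89, as the source of all flies, whereas the sample descriptions name RIL 58 or RIL 89, with 2 samples of each in every group. No mutation, transgene or treatment is named for any group, and the sources used here do not state how many flies made up a sample.

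The antenna is the chief organ of smell in the fly. Its funiculus carries hair-like sensilla that house olfactory neurons, together with support cells that secrete odorant-binding proteins into the fluid around them, and the arista holds temperature-sensing neurons and catches air movement. The proboscis is the feeding organ. It bears taste bristles and taste pegs, is moved by its own muscles, and holds ducts and cuticle of the mouthparts. The first leg is also an organ of touch and taste.

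A sample occupied a single dye channel of an array that held 22575 spots, laid out in 105 rows and 215 columns. Labelling gave each body part 4 Cy3 and 4 Cy5 samples. In the files the gene field of every spot is empty. Spots are therefore given by number and grid place, at most 2 in each direction, and no gene, receptor family or marker of another cell type could be looked up, so the labelled tissues were not checked against markers. In a bulk sample, fewer cells of a type and less RNA per cell cannot be told apart. Levels are normalised log2 intensities from which the fitted terms for dye, array set and RIL number were removed. A difference is the antenna minus the proboscis on the log2 scale, so that a difference of 1 is 2-fold. Samples of different RIL numbers would come from different flies if those descriptions are right. Within an RIL number, nothing in the labels says that replicates came from separate groups of flies. The p-values therefore measure only how far these samples varied, and that variation may be technical.

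Median signal above local background was 104 to 139 in Cy3 antennae and 102 to 148 in Cy3 proboscises, against 16.1 to 49.2 and 23.2 to 62.9 in Cy5. The median level of all spots was 6.29, and levels close to it lie near the lower end of what the arrays resolved, so differences from such levels are compressed. The 12 arrays, inferred as pairs of samples with identical quality scores at every spot, fell into a set of 8, whose channels correlated at 0.628 to 0.737 across spots, and a set of 4, at 0.855 to 0.969. The model therefore holds a separate dye effect for each set. The set of 4 carried 3 of the female antennae, no male antenna and 4 of the proboscis samples.

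The antenna and the proboscis differed at 3588 spots, 15.9% of those tested, at a Benjamini-Hochberg adjusted p under 0.05 in limma. Of these, 1917 spots (8.49%) were higher in the antenna and 1671 (7.4%) were lower. Most differences were small, with a median of 0.31 among the higher and -0.32 among the lower spots. Beyond 2-fold there were 221 higher spots (0.979% of all) and 179 lower ones (0.793%). Beyond 4-fold the counts were 42 and 48, and beyond 16-fold they were 6 and 3. The median difference over all spots was -0.01.

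**Figure D1:**
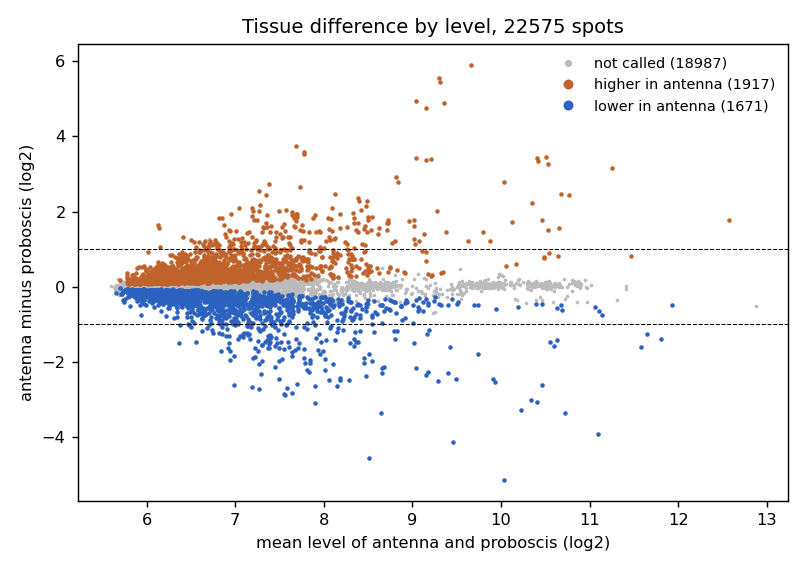
Antenna minus proboscis (log2, vertical axis) against the mean level in both body parts (log2, horizontal axis) for all 22575 spots, with the 1917 called higher and the 1671 called lower in the antenna in colour and dashed lines at 2-fold. The differences run from -5.15 to 5.91, and at mean levels from 6 to 6.5 only 8 of 10316 spots were called beyond 2-fold. The scale itself limits differences at these low levels.

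Called spots were spread unevenly over levels, and those beyond 2-fold are counted here only where called. Of the 4735 spots with a mean level of at most 6, 5.36% were called and 0 lay beyond 2-fold. The background correction added an offset of 50 before the log, which leaves little room below a level of 6. That count of 0 therefore follows largely from the scale. Between 7 and 8 there were 2040 spots, of which 42.4% were called and 9.07% lay beyond 2-fold. Above 10 there were 181 spots, 24.3% called and 14.9% beyond 2-fold. The share of spots beyond 2-fold was also 14.9% between 8 and 9, where 40.8% of 584 spots were called. Called spots thus made up the largest share at middle levels. Large differences lay mostly at levels above 7, where the scale leaves room for them.

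The 8 antenna and 8 proboscis values did not overlap at 1373 spots, 6.08% of all. Among called spots this held for 811 higher (3.59% of all) and 546 lower (2.42%) in the antenna. The 15 non-overlapping spots with the largest rise exceeded the proboscis by 3.33 to 5.91, with standard errors of 0.09 to 0.31. In the antenna these 15 spots had mean levels of 9.54 to 12.61, and in the proboscis 5.81 to 8.77. The 15 with the largest fall differed by -5.15 to -2.71, with standard errors of 0.11 to 0.22. Their mean levels were 5.91 to 9.13 in the antenna and 8.63 to 13.05 in the proboscis.

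Spot 13930 (row 65, column 170) had the largest rise. Its level in the 8 antennae ran from 12.31 through a median of 12.86 to 13.39, and in the 8 proboscises from 6.2 through 6.6 to 7.25. All antenna samples lay far above all proboscis samples, and the highest proboscis value, 7.25, was that of female replicate 4. The antenna exceeded the proboscis by 5.91 ± 0.15 (SE), with a limma adjusted p of 4.22e-15. Before normalisation, its Cy3 signal above background was 7613 to 10295 in antennae and 109 to 201 in proboscises.

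Spot 20442 (row 96, column 17) showed the same contrast. Its level ran from 11.75 through 12.14 to 12.31 in antennae and from 6.05 through 6.42 to 7.09 in proboscises, and the groups did not overlap. The difference was 5.55 ± 0.12 (SE), with a limma adjusted p of 4.54e-16. Its Cy5 signal above background was 2351 to 7732 in antennae and 19.2 to 74.1 in proboscises. At both spots the first legs stayed with the proboscis, at medians of 6.41 and 6.31. Both tissues were there close to the median of all spots, 6.29, near the lower end of what the arrays resolved.

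Spot 6078 (row 29, column 58) had the largest fall. Its level ran from 12.11 through 12.79 to 12.89 in proboscises and from 6.68 through 7.56 to 7.88 in antennae. The difference was -5.15 ± 0.15 (SE), with a limma adjusted p of 4.95e-14. Unlike the spots above, it was intermediate in the first legs, which ran from 8.86 through 9.36 to 9.65 and overlapped neither of the other tissues.

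Spot 6939 (row 33, column 59) ran from 10.46 through 10.71 to 11.64 in proboscises and from 6 through 6.21 to 6.68 in antennae. The difference was -4.57 ± 0.15 (SE), with a limma adjusted p of 2.02e-13. The antenna samples lay at or below a level of 6.68, and the first legs again stood between, from 8.76 through 9.03 to 9.5. Its Cy3 signal above background was 1987 to 2716 in proboscises, 709 to 872 in first legs and 118 to 156 in antennae.

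**Figure D2:**
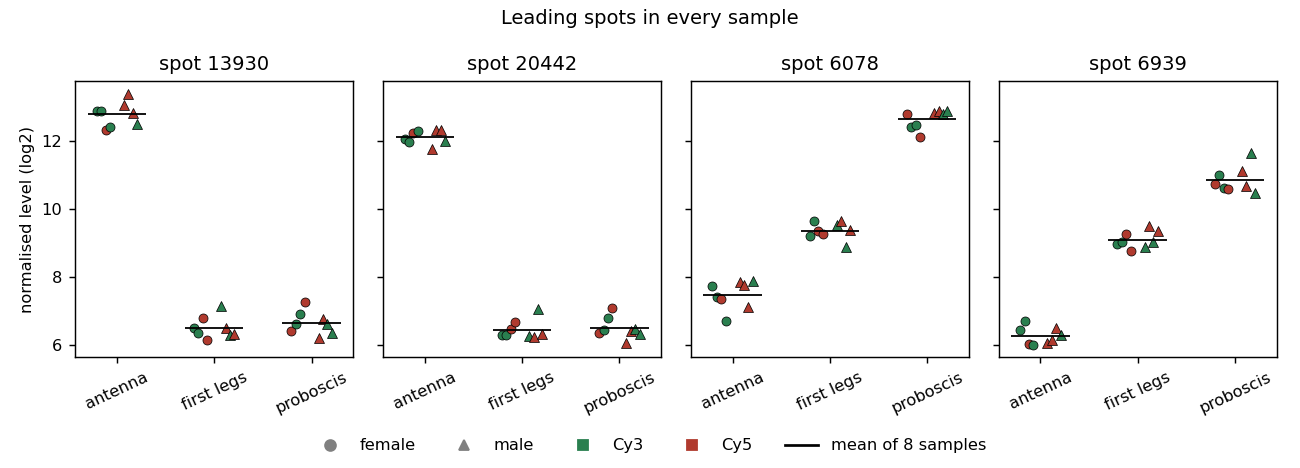
Normalised level (log2, vertical axis) of the leading 2 higher and 2 lower spots in each of 24 samples by tissue, with circles for females, triangles for males, green for Cy3, red for Cy5 and a line at the mean of 8 samples. Antenna and proboscis samples do not overlap at any of the 4 spots, and the first legs lie with the proboscis at spots 13930 and 20442 and between at spots 6078 and 6939.

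The place of the first legs was also counted over the larger sets. At the 221 spots higher in the antenna beyond 2-fold, the median level was 8.48 in the antenna, 6.87 in the first legs and 6.81 in the proboscis. The legs lay nearer to the proboscis than to the antenna at 198 of them (89.6%), and nearer to the antenna at 23. They lay strictly between both at 127, below both at 90 and above both at 4. At the 179 spots lower in the antenna beyond 2-fold, the median level was 6.8 in the antenna, 7.82 in the first legs and 8.52 in the proboscis. Here the legs were nearer to the proboscis at 94 spots (52.5%) and nearer to the antenna at 85, and lay strictly between both at 133, above both at 22 and below both at 24. Over all spots the legs were nearer to the proboscis at 53.2%, and lay between both at 7514, above both at 7420 and below both at 7641. These are counts over spots, the difference between the sets was not tested, and the legs were measured on some of the same arrays. At many of the higher spots the proboscis lay near the lower end of the scale, as given below. Nearness of the legs to it need not mean a shared signal there.

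**Figure D3:**
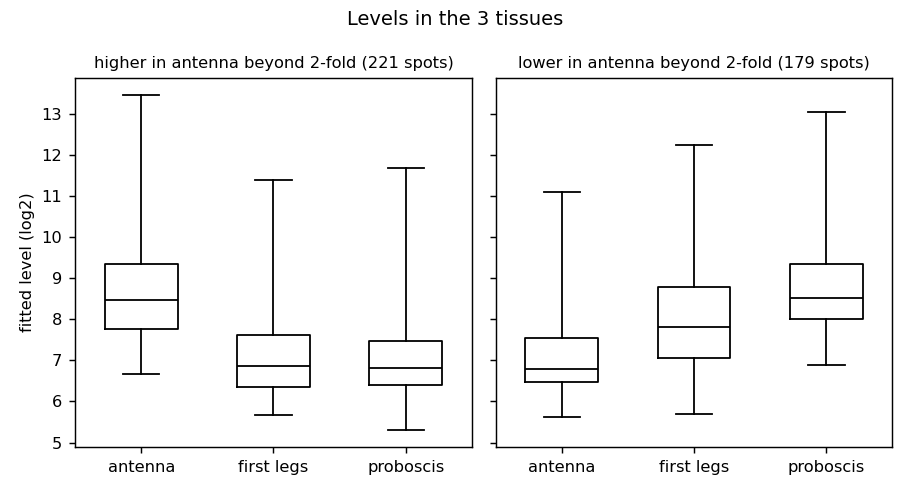
Fitted level (log2, vertical axis) in the 3 tissues of the 221 spots higher and the 179 spots lower in the antenna beyond 2-fold, as boxes of the median and quartiles with whiskers to the lowest and highest spot. The first-leg median is 6.87 beside 6.81 in the proboscis in the left panel, and 7.82, between 6.8 and 8.52, in the right panel.

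The body part with the lower signal was often near the lower end of the scale. At 108 of the 221 spots higher in the antenna (48.9%), the proboscis level was less than 0.5 above the median of all spots. At 89 of the 179 lower spots (49.7%) the antenna level was. The remaining spots had a signal above that limit in both body parts and differed in amount. Over all spots, the lower of the 2 levels was under that limit at 83.1%.

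The difference was also examined in each sex. In females 1856 spots differed, 8.22% of all, with 959 spots above the proboscis and 897 below it in the antenna. That split turned to 814 higher and 993 lower with each sample scaled to 1 median, and to 847 higher and 1120 lower with 1 dye effect for all arrays. A single sample left out could also turn it. It was 820 higher and 857 lower without female proboscis replicate 1, and 807 and 818 without female proboscis replicate 2. Without male first-leg replicate 2 it was 1004 and 1103. With any other sample left out, more spots were higher than lower. In males 1703 spots differed (7.54%), with 1067 higher and 636 lower. Of the 3588 spots called over both sexes, 3555 (99.1%) had the same direction in females and males, and across all spots this share was 57.8%. All of the 221 and all of the 179 spots beyond 2-fold had the same direction in each sex, and 209 and 163 of them were also called in each sex separately. The calls over both sexes used the same samples, so these shares describe the members and are not separate support.

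At spot 13930 the difference was 5.56 ± 0.22 in females and 6.27 ± 0.26 in males (SE). At spot 6078 it was -5.11 ± 0.24 in females and -5.2 ± 0.27 in males (SE). At spots 20442 and 6939 the sexes differed by 0.38 ± 0.31 and -0.27 ± 0.4 (SE, male difference minus female difference).

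The size of the tissue difference was then compared between the sexes. Dye was uneven here, with 3 of the 4 female antennae in Cy3 and 3 of the 4 male antennae in Cy5, and the part of the array sets and dyes in this comparison was not tested beyond the model terms. No spot passed in limma (0 of 22575, with 1053 spots, 4.66%, at an unadjusted p under 0.05, and a smallest adjusted p of 0.356). The 8 spots with the smallest p had unadjusted p-values of 6.05e-05 to 0.000209. At 7 of them the antenna minus proboscis difference was more positive in males and at 1 it was more negative, by 0.25 to 1.15 with standard errors of 0.05 to 0.23. Among spots beyond 2-fold, 16 of the 221 higher (7.24%) and 29 of the 179 lower (16.2%) had an unadjusted p under 0.05. The count of 0 became 11 with a single dye effect for all arrays, 2 without female antenna replicate 4, and 1 with the replicate number within each sex as a block.

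**Figure D4:**
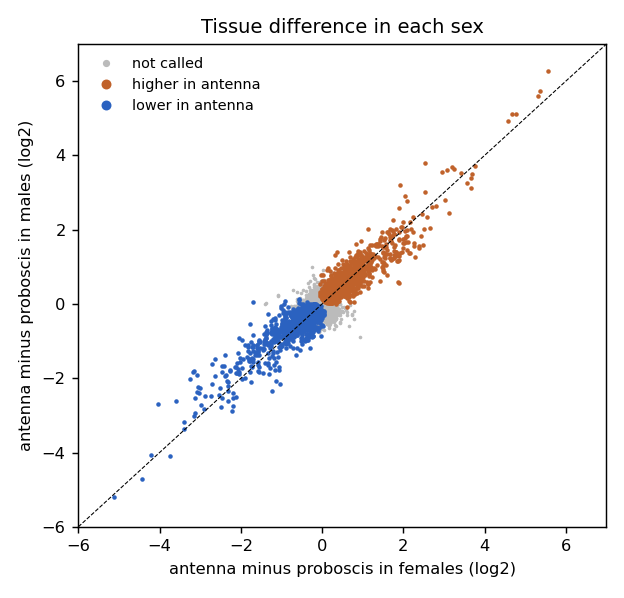
Antenna minus proboscis (log2) in males (vertical axis) against females (horizontal axis) for all spots, with called spots coloured by direction and a dashed line where both are equal. At spot 13930, the point farthest to the upper right, the differences are 5.56 and 6.27, and 3555 of the 3588 called spots have the same direction in both sexes.

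Because 4 of the arrays carried an antenna and a proboscis sample side by side, the contrast could also be read within an array. On 2 of them the antenna was in Cy5 and on the other 2 in Cy3, so that an additive dye effect cancels in their mean. Spot 13930 had within-array log2 ratios of 5.9, 5.49, 5.71 and 5.77 on the 4 arrays. Spot 20442 had ratios of 5.55, 5.11, 5.24 and 5.75. Both ratios were high in each dye orientation. Spot 6078 had ratios of -4.77, -5.06, -4.67 and -5.55, and spot 6939 of -5.06, -4.65, -4.55 and -4.59.

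Over the larger sets, 206 of the 221 higher spots had a positive ratio on all 4 arrays and the other 15 on 3. Of the 179 lower spots, 161 were negative on all 4 arrays and 18 on 3. Over all spots, 7.38% were positive and 6.56% negative on all 4 arrays. The 221 and 179 spots were chosen in a fit that held these arrays, so these counts describe the members and are not separate support. The size of the ratios differed between arrays. On the array with a male antenna in Cy5 beside a male proboscis, the median ratio was 1.97 over the higher spots and -0.8 over the lower ones. On the array with a male antenna in Cy3 beside a female proboscis, these medians were 0.93 and -2.09. Those arrays differed in dye orientation, in the sex of the proboscis fly and in RIL number, and these cannot be told apart with 1 array of each kind. The former set an RIL 58 antenna beside an RIL 89 proboscis, as did 1 array with a female antenna, while the other 2 arrays held RIL 89 in both channels. On the remaining arrays, with female antennae, the medians were 1.5 and 1.7 for the higher spots and -1.72 and -1.85 for the lower ones. Fitted on these 4 arrays alone, with 1 residual degree of freedom for each spot, 1715 spots passed in limma, 1651 of them among the 3588 and 0 in the opposite direction. The 3588 calls had used these arrays too, so that overlap is not separate support either.

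Within a single dye the counts were smaller and the directions alike. In the 12 Cy3 samples alone 990 spots passed in limma, 670 higher and 320 lower in the antenna, and in the Cy5 samples alone 989 passed, 570 higher and 419 lower. In each dye all 221 higher and all 179 lower spots kept their direction, though their choice had used the same samples. Their median differences were 1.4 and -1.41 in Cy3, and 1.56 and -1.7 in Cy5. The set of 8 arrays alone gave 1647 spots and the set of 4, with female antennae only and no array block, 816. In those sets the median difference was 1.22 and 1.62 over the higher spots and -1.46 and -1.69 over the lower ones. In males the split of calls moved between subsets, with 279 higher and 86 lower in Cy3, which held 1 male antenna, and 152 higher and 305 lower in Cy5, which held 3.

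Within a single RIL number, 879 spots passed in limma among RIL 58 samples and 1859 among RIL 89 samples. The tissue difference itself did not pass a test of difference between the RIL numbers at any spot in limma (0 of 22575, with 710 spots, 3.15%, at an unadjusted p under 0.05). All 221 higher and all 179 lower spots had the same direction under either number, though their choice had used the same samples. In males, with 2 samples of each body part per number, the split was 57 higher and 95 lower under RIL 58 and 199 higher and 78 lower under RIL 89.

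Some stretches of the array resembled each other. In the 8 first-leg samples, runs of spots between numbers 225 and 4702 repeated their order of levels between numbers 17278 and 21778, at distances of 16996 to 17076 spots along the grid. Pairs were taken where the ranks of the leg levels correlated at 0.95 or more in some window of 15 spots and the leg levels of the pair lay within 0.5 of each other. This gave 2593 pairs, and the same search at distances of 15400 to 15700 gave 0. The files do not say that these spots carry the same probe, and the limits of the search were set with the results in view.

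In these pairs the antenna minus proboscis difference was nearly the same at both spots. The median gap between the 2 spots of a pair was 0.04 and the largest 0.69, with an SD of 0.06. In 2102 of the 2593 pairs neither spot was called, and small differences leave small gaps there. The direction was the same in 1946 of all pairs, and gaps between unpaired spots were not measured. Of 57 pairs with 1 or both spots beyond 2-fold, all 57 had both spots called in the same direction, and 47 had both beyond 2-fold, with a largest gap of 0.25. Of 491 pairs with 1 or both spots called, both were called in 289 and a single one in 202. Spot 20442 was in such a pair, and its partner had a difference of 5.47 ± 0.14 (SE) beside its own 5.55. The search covered only distances of 16900 to 17200 spots, and no spot of the array lies so far from any of the other 3 numbered spots. They could therefore have no partner in it. Both spots of a pair were read from the same samples, so the gaps say nothing of the spread between flies, and whether they measure error within an array depends on whether both spots carry the same probe, which was not tested. With 1 spot of each pair set aside, 3197 of the 3588 called spots are left, 1705 higher and 1492 lower in the antenna.

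**Figure D5:**
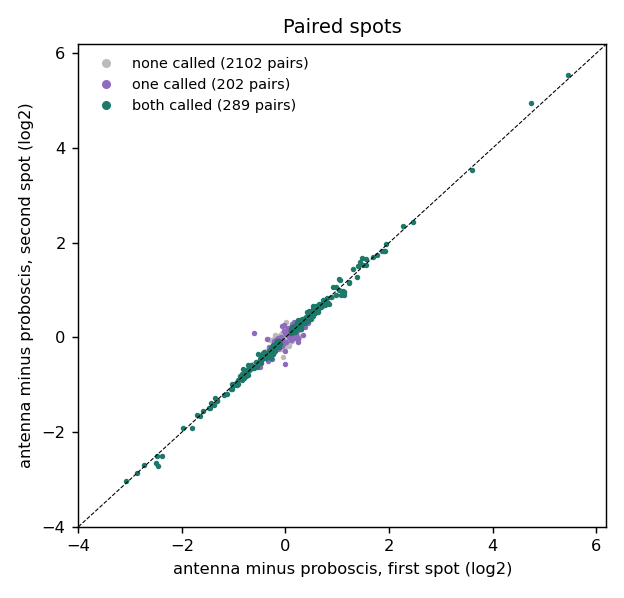
Antenna minus proboscis (log2) at the second spot (vertical axis) against the first spot (horizontal axis) of 2593 pairs found from the first-leg samples, coloured by whether both (289), one (202) or neither (2102) was called, with a dashed line where both are equal. The pairs lie close to the line, with a median gap of 0.04.

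The brightest 10 spots took a larger part of the signal in the antenna than in the proboscis. The first legs, given below, also lay above the proboscis in this share. The brightest 10 spots of a Cy3 sample held 1.98% to 3.45% of its summed signal above background in antennae (median 2.73%) and 1.01% to 1.56% in proboscises (median 1.35%). In Cy5 they held 5.37% to 6.04% in antennae (median 5.84%) and 2.74% to 4.02% in proboscises (median 3.69%). The body parts did not overlap in either dye, and hence not within an array set of either dye, and the mean difference within dye was 1.82 percentage points. In Cy5, median signal above background was lower in antennae within each array set. It was 16.1 to 21.8 against 23.2 and 25.5 in the set of 8 arrays. In the set of 4 it was 49.2 against 54.6 and 62.9. In Cy3 these medians overlapped, and what part they had in the share was not tested. An exact two-sided permutation test of the tissue labels within each dye gave p = 0.000408, the smallest that its 4900 arrangements allow (adjusted p = 0.00122 over 3 measures). That test takes samples of a dye as exchangeable, although 4 arrays held both body parts. With values centred within dye and paired by sex and replicate number, the share was higher in the antenna in 8 of 8 pairs, and an exact sign-flip permutation test gave p = 0.00781, the smallest that 256 arrangements allow. In every female pair both samples named the same RIL number, but in every male pair they named different ones. The male pairing thus did not follow RIL number.

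The single brightest spot of a sample read 22899 to 49545 in Cy3 antennae and 4707 to 11828 in Cy3 proboscises. In Cy5 it read 9179 to 42194 in antennae and 5638 to 16376 in proboscises, where the ranges overlap. The exact permutation p was 0.00245 on the log2 scale (adjusted p = 0.00367), 0.00531 without female antenna replicate 3, the highest Cy5 antenna, and 0.0156 when paired as above, with the antenna higher in 7 of 8 pairs. The brightest 226 spots, about 1% of the array, held 11.7% to 18.4% in Cy3 antennae and 10.6% to 13.7% in Cy3 proboscises, and the permutation test did not pass (exact p = 0.242, and 0.211 when paired). In the first legs the share of the brightest 10 spots was 1.7% to 2.17% in Cy3 and 4.83% to 7.39% in Cy5, which overlapped the antenna. In both dyes the legs lay above every proboscis sample, at 1.01% to 1.56% in Cy3 and 2.74% to 4.02% in Cy5. The contrast is thus not particular to the antenna. Quantile normalisation gives all samples the same distribution of levels, so this contrast in raw signal is not carried into the normalised levels.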

How the data were processed

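Each sample's scanner file holds linear intensity values (mean signal and mean local background) of 1 dye channel and a quality score per spot, per the file headers, with no normalisation and no program named. The deposited value table holds the natural log of each spot's mean signal after subtraction of its mean background, which was tested against the scanner files (largest difference 8.98e-08), blank where that was not above 0, with no normalisation between samples and column medians of 2.78 to 5. Scale, centring and direction of that table are thereby known.

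Groups came from the titles, dye and RIL number from the labels. Here background was corrected with normexp (offset 50) and quantile normalisation was applied to the log2 values of all 24 samples. No spot was left out, as the files name no controls and give no background call. A limma model held 6 group means, dye, array set, their product and RIL number, with moderated two-sided tests and a variance trend (14 residual degrees of freedom). Arrays were identified as the 12 pairs of samples with identical quality scores and entered as a random block (correlation 0.552). The array sets were parted at the widest gap (0.118, next 0.0842) in the channel correlation. Calls have an adjusted p under 0.05 over all 22575 spots. The number of arrays limits the precision.

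In place of 1 dye effect for all arrays, which left the array sets unmodelled, each set had its own. The members, lists, array sets and tests were chosen with earlier results of these data known. Spots named had called, non-overlapping differences, the largest 15 in each direction. Since no source pairs spots with genes, only 2 per direction are numbered, and the 10 gene lists and 5 marker lists that had been set down were not used. Samples of the same sex and replicate number deviated together across antenna and proboscis (correlations 0.12 to 0.56 over 8 pairs, across spots). Replicate 3 of each sex, which shared an array, had the largest, 0.52 in females and 0.56 in males. The other pairs had 0.12 to 0.4. For female replicate 4 and male replicate 1, both at 0.14, the sample of the same number was not the best match. Samples of a male pair named different RIL numbers. Alternatives were the background correction, normalisation, deposited table, a filter on dim spots, the terms, the blocks, weights, subsets of samples and each sample left out. In simulated data for the comparison over both sexes, with 200 of 22575 spots changed, 94% of 100 changes of 0.5 and 100% of 100 changes of 1 on the log2 scale were recovered, and 4.9% of 204 calls were false. These data were drawn with normal errors from the fitted model, its arrays and its array correlation, so they cannot test those choices. They also held fewer changed spots than were called in the real data. The changes were added in full on the normalised scale, so they were not compressed at dim spots. No change smaller than 0.5 was tried, while the median called differences were 0.31 and -0.32. Recovery of such changes, or of changes at dim spots, was not tested. Fits used limma 3.58.1 and statmod 1.5.0 under R 4.3.3. Figures were drawn with matplotlib 3.10.9 and pandas 2.3.3 in Python 3.11.15.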

Additional observations from a re-analysis of the deposited data

Results flagged for a closer look

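Of 20 groups of values examined for a sample far from the others, 1 had one, and chance gives about 1 in 20. The brightest spot of female antenna replicate 3 read 42194 above background, against 13427 in the next of the 4 Cy5 antenna samples, a gap of 0.871 of the group's range where 0.829 is the limit. That sample lay in the set of 4 arrays and the other 3 Cy5 antenna samples in the set of 8.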

How the results depend on the processing

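At all 4 numbered spots the direction and the call held under every alternative run that kept the spot, samples left out included, with differences of 5.36 to 6.54 at spot 13930, 4.91 to 5.95 at spot 20442, -5.45 to -4.28 at spot 6078 and -4.88 to -3.97 at spot 6939. Over both sexes, 16 of 25 other settings stayed within 1.5 times the count of 3588. The rest gave 2221 with the array as a fixed block, 990 in Cy3 alone, 989 in Cy5 alone, 1647 in the set of 8 arrays, 816 in the set of 4, 1715 on the 4 arrays with both body parts, 1038 without them, 879 in RIL 58 and 1859 in RIL 89. In females these settings, in the same order and without the 4 arrays alone, gave 996, 699, 85, 342, 437, 679, 295 and 861, and no array block gave 1211, against 1856. In males they gave 338, 365, 457, 938, 492, 152 and 277 (no set of 4, which held no male antenna), and no array block 1133, scaling to 1 median 781 and a single dye effect 2729, against 1703. The interaction of tissue and sex, 0 spots here, gave 11 with a single dye effect, 8 in Cy3, 64 in Cy5 and 12 in the set of 8 arrays. Some of these subsets held 1 antenna sample in an arm, which is taken to vary like the other groups: 1 male antenna in Cy3, and 1 female antenna in Cy5 and in the set of 8 arrays. Their counts in that sex and for the interaction rest on it. Subsets hold fewer samples, and other causes were not tested. Leaving out each sample in turn gave 2554 to 3856 spots over both sexes, 1249 to 2107 in females, 1192 to 1761 in males and 0 to 2 for the interaction. With the replicate number within each sex as a block the counts were 3431, 1534, 1275 and 1, and with the replicate number alone 3672, 1657, 1652 and 0, and neither block changed the call at a numbered spot. Higher spots outnumbered lower ones over both sexes in each setting except scaling to 1 median, with 1582 higher and 1638 lower. The fits on the 4 arrays with both body parts, without them, by RIL number, without repeated or marked spots with the block within each sex and with paired brightness shares were chosen after seeing the data. Cy5 signals near background limit what dim spots can show.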
